A study of Mus musculus with 5 samples.

Results

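The imprinted growth genes described here are H19, Igf2, Igf2r, Dlk1, Meg3, Rian, Mirg, Peg3, Plagl1 and Grb10, 10 of the 54699 genes in the deposited expression table. They were taken by gene name and chosen by their FPKM in these same 5 libraries, the high H19 level after forced Myod1 expression above all, so the levels and ratios below are a description and no test is given for them. Imprinted genes are transcribed from only 1 parental chromosome, according to DNA methylation marks set in the germ line, and many of them raise or restrain growth. H19, a maternally expressed long noncoding RNA, and Igf2, a paternally expressed growth factor, share downstream enhancers, and both are abundant in embryonic skeletal muscle. The RNA measured here was not separated by parental chromosome, so the values are totals of both alleles.

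RNA was sequenced from B16F10, a mouse melanoma cell line, in 5 lentivirus-infected cultures with 1 library each. Cells were collected at day 8 after forced expression of mouse Myod1, a transcription factor that directs muscle differentiation, or of mouse Pparg, the nuclear receptor that directs adipocyte differentiation. Cells carrying the empty expression vector for the same 8 days were the control of both. Cells collected at day 7 had received a short-hairpin RNA against Setdb1, a histone H3 lysine 9 methyltransferase, and their control carried the empty knockdown vector. All 5 groups are therefore 1 infected cell line grown in serum, the labels do not give the promoter that drives either factor, and the shared control ties the Myod1 and Pparg comparisons to each other. With 1 library per group there is no spread between replicates and no p-value, and each interval covers counting error alone.

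The libraries held between 16214802 and 18300670 reads assigned to genes. The level of Setdb1 was 0.867 FPKM (fragments scaled by gene length and library, as the authors computed them) in the knockdown library and 9.82 in its control. Of the 10 melanocyte markers none was at 0 reads in any library, and their summed FPKM was 7830 and 8565 in the controls, 3322 with Myod1, 2315 with Pparg and 9137 with Setdb1 knockdown. By at least 2-fold, 5 of these markers were lower with Myod1 and 7 with Pparg, and none was higher. Of all genes compared, 7.55% and 2.3% were lower. In the Setdb1 comparison 1 marker was higher and 2 were lower, where 9.34% and 10.3% of all genes were. The median log2 difference of the markers there was -0.16, and the higher sum came with Pmel at 4347 against 2993 FPKM. The 10 skeletal muscle markers summed to 34157 FPKM with Myod1 and to between 10.9 and 32.5 in the other 4 libraries, and the 8 adipocyte markers to 317 with Pparg and to between 0.633 and 2.71 elsewhere. Markers of immune cells (6 genes) and fibroblasts (6 genes) summed to at most 2.24 and 2.45 FPKM in any library. In such bulk samples, fewer cells of a type and less RNA per cell cannot be told apart.

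The sequences most closely tied to the H19 and Igf2 genes are the microRNAs made from their transcripts, shown here because the host RNA was measured and its short products were not. The H19 transcript holds the hairpin of miR-675, and an intron of Igf2 holds that of miR-483. The mature forms from RefSeq (GRCm38.p6) follow, 5′ to 3′, with the seed (bases 2 to 8) in capitals.

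miR-675-5p: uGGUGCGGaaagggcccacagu
miR-675-3p: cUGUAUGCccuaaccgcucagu
miR-483-5p: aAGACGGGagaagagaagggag
miR-483-3p: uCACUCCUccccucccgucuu

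The 4 seeds differ from each other. The 84-base Mir675 hairpin lies on the minus strand at chr7:142577064-142577147, inside exon 1 of the H19-202 transcript. The rows for Mir675 and Mir483 held 0 reads in all 5 libraries, in a kind of library that is not built to capture mature microRNAs. Of the 12 microRNA genes listed for imprinted loci, Mir296 alone had reads, 2 of them in the Myod1 library. It lies on chromosome 2, away from H19 and Igf2. The values for H19 below are therefore those of the long host RNA, and the files hold no measurement of miR-675 itself.

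H19 was the member with the widest range. H19 (ENSMUSG00000000031, GRCm38 chr7:142575529-142578143, minus strand, lincRNA) stood at 1085 FPKM with Myod1 (95% Wilson interval 1075 to 1096), 9.84 with Pparg (8.98 to 10.8), 0.597 with the empty expression vector (0.401 to 0.889), 0.220 with Setdb1 knockdown (0.119 to 0.404) and 0.340 with the empty knockdown vector (0.203 to 0.571). These levels came from 41983, 464, 24, 10 and 14 reads. The Myod1 library lay far above every other, the Pparg library lay above both controls, and the intervals of the remaining 3 libraries overlapped. With Myod1, H19 alone took 0.229% of all reads assigned to genes and ranked 36 by FPKM, against rank 11675 in its control.

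The ratio of H19 reads between the Myod1 library and its control, scaled as the authors did, was 1817 (95% exact interval 1221 to 2837). On the log2 scale of FPKM + 1 used for all comparisons below, the difference was 9.41. With Pparg the fold was 16.5 (10.9 to 26.0) and the log2 difference 2.76. Against the empty knockdown vector instead, the 2 folds were 3189 (1900 to 5834) and 28.9 (17.1 to 53.3). The Setdb1 knockdown library gave 0.645 of its control (0.256 to 1.56), an interval that includes no difference, although against the empty expression vector its ratio was 0.368 (0.157 to 0.798). The 2 controls themselves differed by a ratio of 0.570 (0.273 to 1.15).

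**Figure D1:**
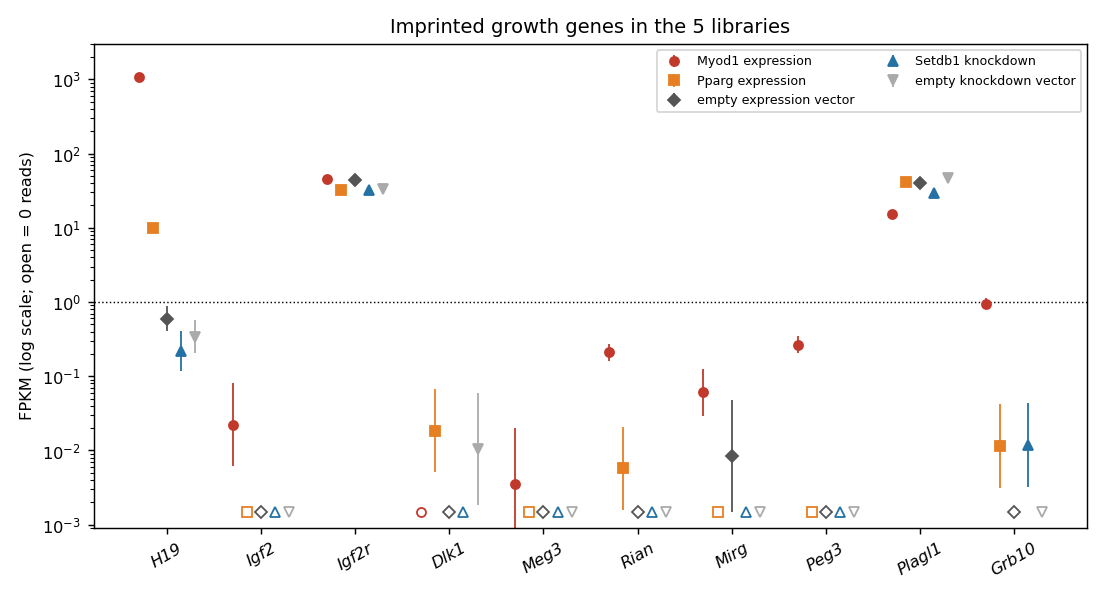
FPKM (log axis) of the 10 imprinted genes in each of the 5 libraries, with 95% Wilson intervals for counting error as bars. Open symbols on the bottom line stand for 0 reads, and the dotted line marks an FPKM of 1. H19 spans from 0.220 to 1085, Igf2r stays between 31.8 and 44.9, Plagl1 is lowest with Myod1 at 15.2, and the other 7 genes stay below 1 in every library.

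The H19 level in the Pparg library was 0.907% of that in the Myod1 library. For comparison, the same share was 0.185% for the fast myosin light chain gene Mylpf, 0.0421% for the fast troponin T gene Tnnt3, 0.00566% for the skeletal actin gene Acta1 and 0.00401% for the muscle creatine kinase gene Ckm, while Des, which encodes the muscle intermediate filament desmin, reached 12.7%. The myogenic regulator gene Myog and the fusion gene Mymk had 0 reads with Pparg. Of the 10 muscle markers, Mylpf alone passed the 2-fold limit with Pparg, at 17.6 against 7.61 FPKM, or 10% against 6.52% of all genes compared. The part of RNA from muscle genes in the H19 value of the Pparg library was not tested.

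The 3 genes whose profile over the 5 libraries was nearest to that of H19 were Jsrp1, which encodes a protein of the junctional sarcoplasmic reticulum, Mylpf, and the tropomyosin gene Tpm2. Their root mean square differences from H19 were 0.764, 0.774 and 0.940 on the mean-centred log2 scale, over which H19 itself ranged by 9.80. Jsrp1 stood at 319 FPKM with Myod1 and 3.52 with Pparg, and between 0.0449 and 0.649 in the other 3 libraries. Each of these profiles is dominated by the Myod1 library.

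Igf2 did not share the level of H19. Igf2 (ENSMUSG00000048583, chr7:142650766-142666816, minus strand) encodes insulin-like growth factor 2, and its start lies 88.7 kb upstream of the H19 start. It had 2 reads with Myod1, or 0.0222 FPKM (0.00609 to 0.0810), and 0 reads in the other 4 libraries. A count of 0 allows up to 3 reads, or 0.0321 FPKM in the empty expression vector library, so no difference in Igf2 was detectable at this depth. The antisense transcript Igf2os, which overlaps Igf2, had 50 reads with Myod1 and 0 elsewhere, at least 17.3-fold higher than the control at 3 reads. Whether reads were assigned by strand is not given in the sources used here, so reads of Igf2 and Igf2os may have been exchanged. Ins2, the insulin gene beside Igf2, had 0 reads in all 5 libraries.

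On the other side of H19 lies a group of muscle genes. Within 250000 bases of H19 the table lists 21 genes, of which 7 reached 1 FPKM in some library and could be compared, and 8 had 0 reads in all libraries. With Myod1, 4 of the 7 were past the 2-fold limit upward and 1 downward, where 21.6% of the 12842 genes compared were past it in either direction. All 4 upward genes reached 1 FPKM in the Myod1 library alone and so were compared only because they were high there, and of the other 3 none was higher and 1 was lower. Tnnt3, the fast skeletal troponin T gene 79.3 kb away, stood at 2112 FPKM against 0.155 (log2 difference 10.84). Tnni2, the fast troponin I gene at 136 kb, stood at 526 FPKM against 0 reads (log2 difference 9.04), and its reads were 12387 with Myod1, 1 with Pparg and 0 in the other 3 libraries. These are among the muscle markers already counted above.

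Prr33 at 71.4 kb was at 13.2 against 0.0521 FPKM (log2 difference 3.76), but its span overlaps those of Tnnt3 and Lsp1, and reads may have been shared. Syt8, a synaptotagmin gene at 143 kb, had 50 against 1 reads (1.38). Lsp1, which encodes an actin-binding protein of leukocytes, was the gene past the limit downward, at 0.787 against 2.60 FPKM (-1.01). Nctc1, a noncoding RNA gene between the muscle genes and H19, had 21 reads with Myod1 and 0 elsewhere, at least 7.27-fold. Mrpl23 and Ctsd, for a mitochondrial ribosomal protein and a lysosomal protease, stayed within 2-fold at 0.72 and -0.15.

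None of the 7 compared neighbours passed the limit with Pparg, against 6.52% of all genes compared, and none did with Setdb1 knockdown, against 19.7%. However, 4 of the 7 were compared through the Myod1 library alone. Being under 1 FPKM in the other libraries, they could not pass in either comparison. Among the 7, Tnnt3 had the greatest difference with Pparg, at 27 against 4 reads, or 0.890 against 0.155 FPKM (log2 difference 0.71). The log2 differences of Mrpl23 were -0.16 and 0.78, and those of Ctsd 0.30 and 0.79.

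**Figure D2:**
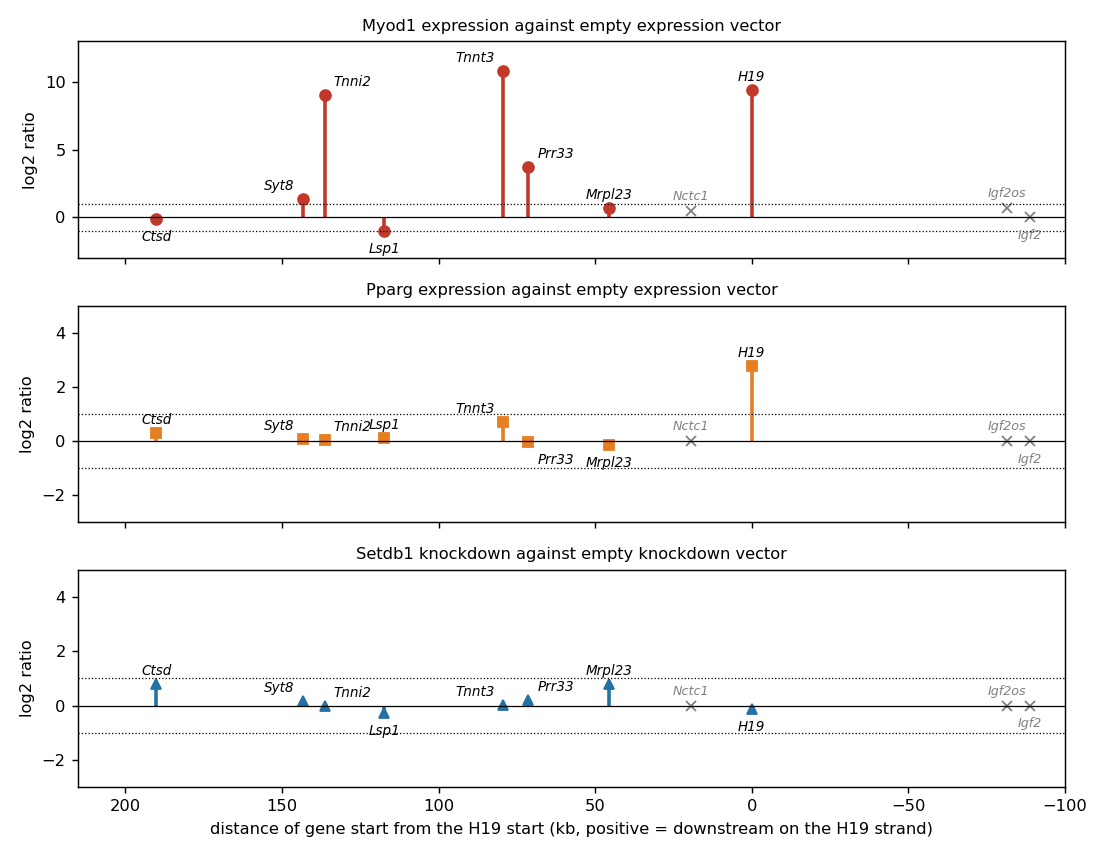
Log2 ratio of FPKM + 1 (vertical axis, whose range differs between panels) for H19 and its neighbours by distance of the gene start from the H19 start in kb, in 3 comparisons. Filled symbols are genes at 1 FPKM or more in some library, crosses are genes below it, and dotted lines mark 2-fold. With Myod1, H19, Tnnt3, Tnni2, Prr33 and Syt8 lie above the upper line and Lsp1 just past the lower one, while with Pparg H19 alone lies outside the lines and with Setdb1 knockdown no gene does.

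Igf2r is the receptor that removes IGF2 from the cell surface and carries mannose-6-phosphate-tagged enzymes to lysosomes. Igf2r (ENSMUSG00000023830, chr17:12682406-12769664, minus strand) was at 44.9 FPKM with Myod1 (43.8 to 46.0), 32.7 with Pparg (31.8 to 33.5), 44.6 with the empty expression vector (43.5 to 45.7), 31.8 with Setdb1 knockdown (31.0 to 32.7) and 33.7 with the empty knockdown vector (32.8 to 34.7). The highest level was 1.41 times the lowest, and no comparison passed 2-fold. The Myod1 library and its control were higher than the other 3, and the controls stood on different sides of that gap.

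The Igf2r fold was 1.01 with Myod1 (0.973 to 1.04), 0.732 with Pparg (0.707 to 0.759) and 0.944 with Setdb1 knockdown (0.909 to 0.981). The ratio of the 2 controls was 0.756 (log2 difference -0.39), close to the Pparg value of -0.44, and against the other control the Pparg library was at -0.05. The sign of the Myod1 value turned with the scaling, from a log2 difference of 0.01 to -0.37 when libraries were divided by the sum of their FPKM. Airn, the noncoding RNA transcribed antisense to Igf2r, had 22, 13, 10, 10 and 13 reads in the order of the levels above. The spans of Airn and Igf2r overlap and the handling of strand is not given, so reads may have been exchanged.

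The genes nearest to Igf2r in profile were Gm11993, Tet3 and Ccdc58, at root mean square differences of 0.0151, 0.0245 and 0.0416 against a range of 0.48 for Igf2r. Of its neighbours within the same window 6 were compared. With Myod1, 1 of them passed the limit, where 21.6% of all genes compared did. It was Sod2, for the mitochondrial superoxide dismutase, upward (1.66). With Setdb1 knockdown, the chaperonin gene Tcp1 (-1.03, and -0.76 against the other control) and the acetyl-CoA acetyltransferase gene Acat2 (-1.77) passed it downward. CT030636.1 passed it upward (1.15), on 18 against 5 reads. Thus 1 of the 6 was higher and 2 were lower, where 9.34% and 10.3% of all genes were. The remaining neighbours compared stayed within 2-fold in every comparison, as Igf2r did.

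Plagl1 encodes a zinc finger transcription factor that acts on other imprinted genes. Plagl1 (ENSMUSG00000019817, chr10:13060504-13131694, plus strand) was at 15.2 FPKM with Myod1 (14.5 to 15.9), 40.9 with Pparg (39.9 to 42.0), 40.4 with the empty expression vector (39.3 to 41.5), 29.9 with Setdb1 knockdown (29.0 to 30.8) and 47.4 with the empty knockdown vector (46.2 to 48.6). The Myod1 library was the lowest, the Setdb1 knockdown library lay between it and the other 3, and the intervals of the Pparg library and its control overlapped.

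With Myod1, Plagl1 was 2.66-fold lower than in the control (2.52 to 2.80), a log2 difference of -1.35, and -1.58 against the other control. With Setdb1 knockdown it was 1.59-fold lower (1.53 to 1.65), a log2 difference of -0.65 that did not reach the 2-fold limit and was -0.42 against the other control. The controls differed by 0.23, with the empty knockdown vector the higher, which enlarges the Setdb1 decrease against it. That difference between single libraries does not measure spread. The Pparg value was 0.02, and -0.21 against the other control. H19 and Plagl1 thus lay on opposite sides of the control in the Myod1 library.

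The 3 genes nearest to Plagl1 in profile were Pik3r3, a regulatory subunit gene of phosphoinositide 3-kinase, the transketolase gene Tkt, and the pseudogene Ywhaq-ps3. Their differences were 0.0564, 0.0990 and 0.116 over a range of 1.58 for Plagl1. Next to Plagl1, the utrophin gene Utrn passed the limit downward both with Myod1 (-1.07, and -0.90 against the other control) and with Setdb1 knockdown (-1.40). Of its 8 neighbours compared, 4 passed it downward with Setdb1 knockdown, namely Utrn, Ltv1 (-1.39), a gene of ribosome assembly, Gm7525 (-1.05) and Gm27741 (-1.01), where 10.3% of all genes were lower. The last 2 reached 1 FPKM in the empty knockdown vector library alone and so were compared only because they were high in that control. They rest on 1 against 10 and 0 against 4 reads and did not pass against the other control, at -0.18 and 0.00.

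Grb10 encodes an adaptor that restrains signalling by the insulin and IGF1 receptors. Grb10 (ENSMUSG00000020176, chr11:11930508-12038683, minus strand) had 136 reads with Myod1, 2 with Pparg, 0 with the empty expression vector, 2 with Setdb1 knockdown and 0 with the empty knockdown vector. Its level with Myod1 was 0.952 FPKM (0.805 to 1.13), just under the minimum of 1, and it was at least 47.1-fold higher than the control at 3 reads. H19, Igf2r and Plagl1 were the members above that minimum, and Igf2r at 44.9 had the lowest maximum among them.

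The imprinted genes beside Grb10 had the same highest library. Ddc, for aromatic amino acid decarboxylase, had 1016 reads with Myod1 (14.5 FPKM) and 9, 0, 3 and 2 in the other libraries, in the same order, at least 352-fold. Cobl, for an actin nucleator, had 220 reads with Myod1 (1.72 FPKM) and 0 elsewhere, at least 76.2-fold. The log2 differences were 3.95 and 1.44. Fignl1 in the same window, a gene of DNA repair, was past the limit downward with Setdb1 knockdown (-2.06) and within it with Myod1 (-0.86).

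The 4 members of the chromosome 12 cluster that runs from Dlk1 to Dio3 had at most 2 reads in any library other than that with Myod1. Dlk1 (ENSMUSG00000040856, chr12:109452823-109463336) encodes a membrane protein that restrains adipocyte differentiation, and it had 2 reads with Pparg, 1 with the empty knockdown vector and 0 in the other 3 libraries, Myod1 included. Meg3 (ENSMUSG00000021268, chr12:109541001-109571726), a maternally expressed noncoding RNA, had 1 read with Myod1 and 0 elsewhere. Both are at or under the floor of 3 reads everywhere, so no difference was detectable at this depth.

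Rian and Mirg, the noncoding host transcripts of small nucleolar RNAs and microRNAs farther along the plus strand, had a few more reads. Rian (ENSMUSG00000097451, chr12:109603940-109661716) had 60 reads with Myod1, or 0.209 FPKM, 2 with Pparg and 0 in the other 3, at least 20.8-fold above the control at 3 reads. Mirg (ENSMUSG00000097391, chr12:109729764-109749460) had 7 reads with Myod1, 1 with the empty expression vector and 0 elsewhere, a ratio of 7.27 with an interval from 0.934 to 328. The Mirg interval includes no difference.

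Higher levels in and around the cluster belonged to genes that are not members. Rtl1, a retrotransposon-derived gene transcribed from the minus strand, had 1432 reads with Myod1 (14.3 FPKM), 2 with Pparg and 0 in the other 3, at least 496-fold. Its span overlaps 6 microRNA genes of the plus strand. Whether reads were assigned by strand is not given, so reads from the plus strand may be counted with Rtl1. Gm34081, a lincRNA gene on the minus strand between Dlk1 and Meg3, had 130 reads with Myod1 and 0 elsewhere. Begain, beyond Dlk1, was at 5.22 against 0.0555 FPKM, a fold of 94.0 (36.4 to 347). The deiodinase gene Dio3 had 1 read in all, with Setdb1 knockdown. Gm3379, between Mirg and Dio3, did not share this pattern, with 38 reads with Myod1, 29 with Pparg, 20 with the empty expression vector, 33 with Setdb1 knockdown and 43 with the empty knockdown vector, or between 1.91 and 4.01 FPKM. Begain and Dio3 lie more than 250000 bases from the 4 members here. Of the 110 genes of the table within that distance of Dlk1, Meg3, Rian or Mirg, these 4 included, 103 had 0 reads in every library, including 68 of 68 microRNA genes and 23 of 23 small nucleolar RNA genes.

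Peg3, a paternally expressed zinc finger gene (ENSMUSG00000002265, chr7:6703892-6730431, minus strand), had 56 reads with Myod1, or 0.267 FPKM, and 0 in the other 4 libraries. It was at least 19.4-fold higher than the control at 3 reads. Of its 23 neighbours in the window, 22 had 0 reads in all libraries, and the neighbouring imprinted gene Usp29 had 3 reads. The gene thus stood nearly alone in a silent stretch.

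Over all 10 members, 8 had their highest FPKM in the Myod1 library, the exceptions being Dlk1 and Plagl1. Of these 8, Igf2 and Meg3 rest on 2 and 1 reads, and Igf2r was within 0.01 on the log2 scale of its control. Of the 3 members that could be compared, 1 was higher and 1 lower with Myod1, 1 was higher with Pparg, and 0 passed with Setdb1 knockdown. These counts follow from the choice of members, and nothing is read from them. Of all genes compared, 14% were higher and 7.55% lower with Myod1, 4.22% and 2.3% with Pparg, and 9.34% and 10.3% with Setdb1 knockdown. The Myod1 split depends on the scaling, with 1798 genes higher and 970 lower as deposited and 1238 higher and 1907 lower after division by the column sum. H19 stayed higher and Plagl1 lower under both. Between the controls no member passed, where 1.23% of all genes were higher and 1.44% lower.

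Promoter sequence was examined because Myod1 binds E-boxes, CANNTG. A promoter here is 250 bases before to 50 after a RefSeq start (GRCm38.p6), and the 9 members other than H19 have 1 or more entries, 14 in all. The windows of Plagl1, Mirg and Grb10 lie inside the gene spans given above. They do not reach the starts of those spans, where sequence was not examined. CANNTG (a palindrome, so a match on 1 strand is a match on both) was found in 8 of the 14, against 72.3% of all 32851 promoters. The form CAGCTG, also a palindrome and a subset of CANNTG, was found in none of the 14 and in 16.3% of all. A window with a match is shown for members that were low, high or near 0 with Myod1, with CANNTG in capitals.

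Plagl1, chr10:13090582-13090881, plus strand: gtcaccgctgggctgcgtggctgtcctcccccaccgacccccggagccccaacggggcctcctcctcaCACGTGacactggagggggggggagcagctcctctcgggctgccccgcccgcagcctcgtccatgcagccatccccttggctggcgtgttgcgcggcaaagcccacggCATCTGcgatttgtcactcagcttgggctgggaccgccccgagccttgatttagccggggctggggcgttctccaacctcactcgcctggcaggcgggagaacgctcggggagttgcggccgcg
Grb10, second entry, chr11:12027922-12028221, minus strand: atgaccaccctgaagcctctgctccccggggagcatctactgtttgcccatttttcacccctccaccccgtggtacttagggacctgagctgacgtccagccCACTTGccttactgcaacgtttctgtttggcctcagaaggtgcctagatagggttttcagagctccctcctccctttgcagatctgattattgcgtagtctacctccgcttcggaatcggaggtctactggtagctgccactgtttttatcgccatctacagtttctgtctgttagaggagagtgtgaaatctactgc
Rian, chr12:109603695-109603994, plus strand: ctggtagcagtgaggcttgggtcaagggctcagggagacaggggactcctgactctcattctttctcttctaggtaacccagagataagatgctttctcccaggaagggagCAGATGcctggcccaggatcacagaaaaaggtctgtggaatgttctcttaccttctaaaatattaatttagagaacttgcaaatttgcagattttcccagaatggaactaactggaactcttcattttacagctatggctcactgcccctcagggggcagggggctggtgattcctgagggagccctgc
Igf2, first entry, chr7:142666767-142667066, minus strand: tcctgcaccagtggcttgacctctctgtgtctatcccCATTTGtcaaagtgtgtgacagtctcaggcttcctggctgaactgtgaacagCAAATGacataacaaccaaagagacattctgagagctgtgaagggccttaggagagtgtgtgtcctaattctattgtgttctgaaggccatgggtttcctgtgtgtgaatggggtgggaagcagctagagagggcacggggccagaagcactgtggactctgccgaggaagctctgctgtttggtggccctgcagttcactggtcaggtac

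CANNTG occurs 2 times in the Plagl1 window, 4 times in that of Igf2r, 1 time each in those of Rian and Mirg, and not in those of Peg3 and Dlk1. Among members with several entries, the 4 windows of Igf2 hold 2, 0, 1 and 0, the 2 of Grb10 hold 0 and 1, and the 2 of Meg3 hold 0 and 1. A match is a match of letters and not a measured site.

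A list of 71 imprinted genes, the 10 members among them, set the members in a wider frame. Of these, 33 reached 1 FPKM in some library and 13 had 0 reads in all 5. With Myod1, 12 of the 33 were higher and 2 lower by at least 2-fold, or 42.4% against 21.6% of all genes compared, and the median log2 difference was 0.27 against 0.02 over all genes. Without the members the count was 11 higher and 1 lower of 30. Of the 12, Cdh15, Ddc, Rtl1, Begain, Snrpn and Cobl reached 1 FPKM in the Myod1 library alone and so were compared only because they were high there. Without such genes 6 of 27 were higher and 2 lower, or 29.6% against 18.2% of all genes treated likewise. The 6 still include H19 and the 2 include Plagl1, members chosen by their levels in these libraries, so nothing is read from that share. With Pparg 4 of 33 were higher and none lower, or 12.1% against 6.52% of all genes, and 3 of 30, or 10%, without the members. With Setdb1 knockdown 2 were higher and 2 lower, or 12.1% against 19.7% of all genes, and 13.3% of 30 without the members. Between the controls 1 of 33 was higher, where 2.67% of all genes passed. The genes compared through the Myod1 library alone remain in the Pparg, Setdb1 and control counts. Being under 1 FPKM in the other libraries, they could not pass there. They were 6 of the 33 and 709 of the 12842 genes compared.

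Cdh15, the muscle cadherin gene, was at 186 FPKM with Myod1 against 0.0753 in its control (7.44), and in no other library did it exceed the control. Peg10, a retrotransposon-derived imprinted gene, was at 175 with Myod1, 33.8 with Pparg, 14.8 with the empty expression vector, 4.18 with Setdb1 knockdown and 29.6 with the empty knockdown vector. It was 11.8-fold higher with Myod1 (11.2 to 12.5) and 7.09-fold lower with Setdb1 knockdown. The controls differed by 0.96 in log2 for Peg10. Its Pparg value of 1.14 passed the limit against the empty expression vector and did not against the other control, while the Setdb1 value was -2.56 and, against the other control, -1.61. Sgce, its neighbour with a shared promoter region, stayed at -0.02, 0.07 and 0.01 in the 3 comparisons.

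Gnas, for the stimulatory G protein alpha subunit, was at 29.8 against 4.94 FPKM with Myod1 (2.38) and at 10.5 against 4.23 with Setdb1 knockdown (1.14, and 0.96 against the other control). Snrpn had 93 reads with Myod1 against 0, at least 32.2-fold. Osbpl5 (1.72), Blcap (1.62) and Herc3 (1.18, and 0.83 after division by the column sum) were also higher with Myod1. Several of these share their span with other genes, 5 for Gnas, 3 for Snrpn and 2 for Blcap, so reads may have been shared. Slc22a18, a transporter gene of the cluster next to Igf2, differed in opposite directions, at 5.88 against 21.3 FPKM with Myod1 (-1.70) and 51.1 against 18.7 with Setdb1 knockdown (1.40).

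Mest, an imprinted gene known for its induction in growing fat tissue, was the imprinted gene with the greatest log2 difference with Pparg. Its levels were 3.10 FPKM with Myod1, 59.3 with Pparg, 2.39 with the empty expression vector, 1.85 with Setdb1 knockdown and 6.88 with the empty knockdown vector. The Pparg library was 24.8-fold above its control (21.1 to 29.3) and 8.62-fold above the other. The controls themselves differed by 1.22 in log2, and the Setdb1 value of -1.47 did not pass the limit against the empty expression vector. The Pparg level alone stood clear of the spread among the other 4 libraries. Mest shares its span with 5 genes, Copg2 among them.

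**Figure D3:**
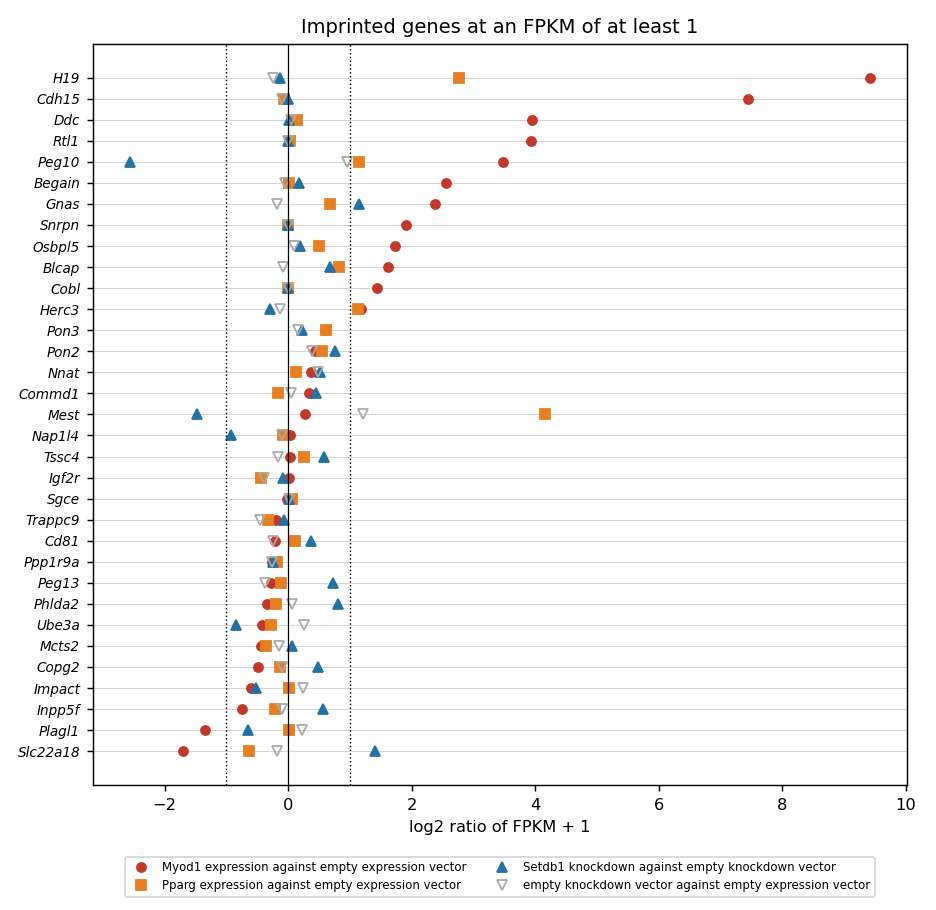
Log2 ratio of FPKM + 1 for the 33 imprinted genes at 1 FPKM or more in some library, ordered by the Myod1 value, in 3 comparisons and between the 2 controls (open symbols). Dotted lines mark 2-fold. Myod1 values pass the upper line for 12 genes, from H19 at 9.41 to Herc3 at 1.18, and Mest at 4.15 stands out with Pparg.

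The machinery that reads IGF2 was compared through lists of 54 genes, 32 of which reached 1 FPKM and 8 of which had 0 reads throughout. Among ligands and receptors, Igf1, Ins1, Ins2 and the receptor gene Insrr had 0 reads in all libraries. The receptor genes Igf1r and Insr were low and no comparison passed 2-fold. Igf1r was at 2.44 FPKM with Myod1, 1.37 with Pparg, 1.61 with the empty expression vector, 1.53 with Setdb1 knockdown and 1.10 with the empty knockdown vector. No ligand gene of the list therefore exceeded 2 reads, while all 3 receptor genes for these ligands were detected.

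Over the 32 genes, 2 were higher and 5 lower with Myod1 (21.9% past the limit, against 21.6% of all genes compared), 2 higher and none lower with Pparg (6.25% against 6.52%), and 1 higher and 4 lower with Setdb1 knockdown (15.6% against 19.7%). None passed between the controls. These shares were near those of all genes. After division by the column sum the split was 1 higher and 6 lower with Myod1, and 0 higher and 4 lower with Setdb1 knockdown. Single genes differed widely within them.

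Among the binding proteins, which hold IGFs outside the cell, Igfbp7 was at 18.0 FPKM with Pparg against 0.405, a fold of 44.5 (22.4 to 104), and at 2.10 with Myod1 (1.14, and 0.91 after division by the column sum). Igfbp4 was at 25.6 with Myod1 against 74.7 (-1.51) and at 36.5 with Setdb1 knockdown against 82.3 (-1.15). Igfbp6 had 1 read with Myod1 against 22 (-1.06, and -0.38 against the other control). The 3 binding protein genes compared thus did not share a direction with Myod1.

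Downstream of the receptors, the 2 main Akt kinase genes differed from each other. Akt2 was at 146 FPKM with Myod1 against 23.6, a fold of 6.19, and lower with Setdb1 knockdown (-1.21). Akt1 was within 2-fold with Myod1, at 520 against 361, and at 67.2 against 375 with Setdb1 knockdown, 5.58-fold lower. Nedd4, for a ubiquitin ligase that binds Grb10, was 5.75-fold lower with Setdb1 knockdown. The phosphoinositide 3-kinase genes Pik3r3 (-1.38) and Pik3cd (-1.19, and -0.85 against the other control) were lower with Myod1, and the insulin receptor substrate gene Irs2 was higher with Pparg (1.24).

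Of the 7 genes listed because their products bind or control Igf2 mRNA, 4 could be compared. Hmga2, a chromatin protein gene, was at 2.48 against 8.31 FPKM with Myod1 (-1.42). Igf2bp2 was at 2.91 against 0.921 with Setdb1 knockdown (1.02), and did not pass against the other control, where it was at 1.70. Igf2bp1 was at 0.631 with Myod1, 1.57 with Pparg, 1.66 with the empty expression vector, 2.75 with Setdb1 knockdown and 3.07 with the empty knockdown vector, and passed the limit in no comparison with its own control.

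**Figure D4:**
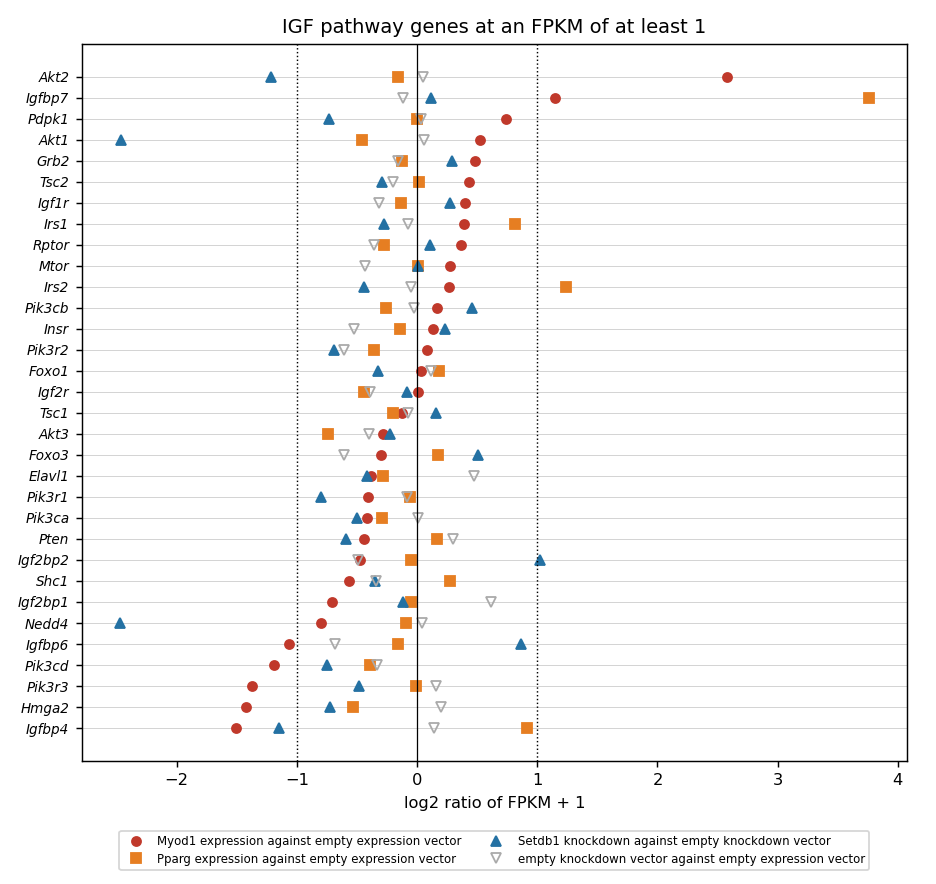
Log2 ratio of FPKM + 1 for the 32 IGF pathway genes at 1 FPKM or more in some library, ordered by the Myod1 value, in 3 comparisons and between the 2 controls (open symbols). Dotted lines mark 2-fold. Akt2 at 2.58 with Myod1, Igfbp7 at 3.76 with Pparg, and Akt1 at -2.46 and Nedd4 at -2.48 with Setdb1 knockdown lie farthest from 0.

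Dlk1 acts on Notch signalling, and of 18 genes listed for that pathway 11 could be compared. With Myod1, the ligand genes Jag2 (5.89 against 0.729 FPKM, 1.99) and Dll1 (2.58 against 0.0435, 1.78) and the target gene Hes1 (1.28) were higher and none was lower, or 27.3% of the 11 against 21.6% of all genes, and Dll1 reached 1 FPKM in the Myod1 library alone. After division by the column sum, 2 were higher and 3 lower. With Pparg the receptor gene Notch3 was higher (1.44), or 9.09% against 6.52%. With Setdb1 knockdown Hes1 was higher (1.30) and Sox9 lower (-1.53), or 18.2% against 19.7%, and none passed between the controls. Dll1, under 1 FPKM in every library but that with Myod1, could not pass in these last comparisons.

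Imprints are set, kept, read and erased through DNA methylation and the proteins that act on it, and 24 genes with any of these roles were listed, 19 of which could be compared. The list therefore mixes opposing roles, such as the methyltransferase gene Dnmt1 and the Tet genes, whose products oxidise methylated cytosine. None was higher and 7 were lower with Myod1, or 36.8% against 7.55% of all genes lower, and none was higher and 6 lower with Setdb1 knockdown, or 31.6% against 10.3% of all genes lower. The 6 include Setdb1, the gene knocked down, and without it the count was 5 of 18, or 27.8%. Under the other scalings the counts remained without a higher gene, with 7 or 8 lower with Myod1 and 6 lower with Setdb1 knockdown. None passed with Pparg or between the controls. The median log2 difference was -0.49 with Myod1, -0.18 with Pparg and -0.55 with Setdb1 knockdown, where that of all genes was 0.02, -0.02 and 0.00.

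Dnmt1, the maintenance DNA methyltransferase gene, was at 29.5 FPKM with Myod1, 57.2 with Pparg, 83.8 with the empty expression vector, 16.8 with Setdb1 knockdown and 66.0 with the empty knockdown vector. Uhrf1, which brings DNMT1 to replicated DNA, was at 46.1, 96.8, 108, 8.79 and 116 in the same order. The log2 differences of Uhrf1 were -1.21 with Myod1 and -3.58 with Setdb1 knockdown. The helicase gene Hells (-1.84 and -2.39), Smchd1 (-1.22 and -1.24) and Arid4a (-1.04 and -1.05) were likewise lower in both, although Arid4a with Myod1 was at -0.84 against the other control. Atrx (-1.82) and Zfp445 (-1.02), a zinc finger gene of imprint maintenance, passed the limit with Myod1, and Setdb1 itself (-2.53) with its knockdown. Several of these genes are also known to follow the cell cycle, whose part in these values was not tested.

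DNA methylation at these loci was not measured in the files used here.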

How the data were processed

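Per the labels' protocols, TRIzol was used for RNA and the NEBNext Ultra RNA kit for the libraries. CASAVA, HISAT2, featureCounts 1.5.0-p3 and the genome build GRCm38 are named in the submitters' processing notes. The handling of strand and of reads shared between overlapping genes is not given in the sources used here. The authors deposited 1 table of FPKM values for 5 libraries.

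In every library the FPKM times gene length were whole multiples of 1 step for all values above 0 (tolerance 0.01), which gave back the reads per gene. The authors' divisor was between 0.859 and 1.10 times those reads, so the values were already scaled between libraries. Positions are those of the table, and 98.3% of 54409 shared identifiers match GENCODE M21 (GRCm38).

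Computed here, with Python 3.11.15, pandas 2.3.3, numpy 2.4.6 and scipy 1.17.1, were log2 ratios of FPKM + 1 for the 12842 genes whose highest FPKM was 1 or more. A gene was counted as higher or lower at an absolute value of at least 1. Levels carry 95% Wilson intervals on the share of reads, and folds carry 95% exact intervals on the ratio of reads. Reads without molecular identifiers are not independent molecules, so both cover counting error only. Folds against 0 reads were computed against 3 reads and are given as lower bounds, and a fold against 1 to 3 reads is the ratio with its interval. Conditions could not be tested against each other, each having 1 library. The computation was tested on simulated data.

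The members and the 15 lists were chosen with earlier results of these data known. Genes named are the members, list genes past the limit or that complete a member's locus, marker genes, neighbours past the limit within 250000 bases, and the 3 nearest profiles of each compared member. Igf1r, Insr, Igf2bp1, Mrpl23, Ctsd and Sgce, within the limit, were named for contrast after their values were seen. Alternatives were a pseudocount of 0.1, a 4-fold limit, scaling by the column sum or the 75th percentile, centring on the median, the other control, no filter on low values or a mean FPKM of at least 1, and values under 3 reads set to 3.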

Additional observations from a re-analysis of the deposited data

How the results depend on the processing

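Of 73 calls in the member, neighbour, imprinted, IGF, Notch and imprint-control lists, none changed sign under the alternatives run, 4 were lost after division by the column sum, 1 with scaling to the 75th percentile and 4 with values under 3 reads set to 3. Against the other control 11 of 71 were lost. For the members, the counts past 2-fold stayed the same under all of them except with the 4-fold limit, where the Myod1 count was 1 in place of 2. With the 4-fold limit the counts of the imprinted list were 7 with Myod1 (14 at 2-fold), 2 with Pparg (4), 1 with Setdb1 knockdown (4) and 0 between the controls (1). Those of the IGF lists were 1 with Myod1 (7), 1 with Pparg (2) and 2 with Setdb1 knockdown (5). With a pseudocount of 0.1 the imprinted list had 7 with Setdb1 knockdown and 2 between the controls, and the IGF lists 1 between the controls (0 at the pseudocount of 1). Division by the column sum gave 2 imprinted genes between the controls and moved the median of all genes with Myod1 to -0.26. Across the alternatives, the log2 difference of H19 with Myod1 was between 9.06 and 10.60, that of H19 with Pparg between 2.76 and 3.83, and that of Plagl1 with Myod1 between -1.72 and -1.35. No paired analysis was possible because each group has 1 library, and for the same reason no library could be left out. The Notch and imprint-control lists, the neighbours and the counts of all genes were put through the alternatives after the data were seen. Depth limits Igf2, Dlk1, Meg3 and Mirg, which had at most 7 reads in any library.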

Other observations

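The neighbours of all 10 members, each counted once, came to 197 genes within 250000 bases, of which 144 had 0 reads in every library and 27 were compared. With Myod1, 9 of the 27 were higher and 2 lower by at least 2-fold, but 8 of the 9, all but Sod2, reached 1 FPKM in the Myod1 library alone and so were compared only because they were high there. Of the other 19, 1 was higher and 2 lower, or 15.8% against 18.2% of all genes treated likewise. With Pparg none of the 27 passed in either direction, against 6.52% of all genes. With Setdb1 knockdown 1 was higher and 7 lower, against 9.34% and 10.3% of all genes. Of the 7, Gm7525 and Gm27741 reached 1 FPKM in the empty knockdown vector library alone and so were compared only because they were high in that control, and these 2 and Tcp1 did not pass against the other control. Between the controls 1 was higher, against 2.67% of all genes in either direction. It was Gm27741, on 4 reads, and of the 25 neighbours not compared through the empty knockdown vector library alone none passed.

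Cdkn1c, an imprinted inhibitor of cyclin-dependent kinases that is known from muscle differentiation, was low throughout. It had 29 reads with Myod1, 19 with Pparg, 8 with the empty expression vector, 21 with Setdb1 knockdown and 16 with the empty knockdown vector. It did not reach 1 FPKM in any library and was not compared.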
